A study of Mus musculus with 4 samples.

Results

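The beta-secretase genes Bace1 and Bace2, the amyloid precursor protein gene App with its relatives Aplp1 and Aplp2, and the presenilin gene Psen2 were examined in mouse ovaries that overexpress Sall1. These 6 genes were taken by symbol from a count table of 34682 genes, and all 6 passed the filter on low counts that left 15442 genes for testing. Bace2 was selected on its difference between mutant and wild-type ovaries in these same 4 libraries, and the other 5 genes by their place in the same proteolytic pathway. The difference of Bace2 is therefore given as a description, and no p-value is given for any of the 6 genes.

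The ovaries were taken at stage E13.5 (days of embryonic development) and their RNA was sequenced, with 2 libraries of Sall1 mutant and 2 of wild-type embryos, numbered 1 and 2 in each group. In the mutants, a bacterial artificial chromosome (BAC) carrying the promoter and regulatory elements of Wt1 drives the Sall1 coding sequence, and Wt1 is active in somatic cells of the gonad. The BAC was inserted by piggyBac transposition into female mouse embryonic stem cells, and picked clones were aggregated with morulae, so the embryos can be chimeric. The paper's account of the transfection derives these cells from C57BL/6J blastocysts. Its general methods name C57BL/6J or a C57BL/6J-129 hybrid as the background for transgenic work. The study's text calls the controls littermates in one place and CD1 gonads in another, and the names of the wild-type columns contain B6. A difference in strain can thus not be told apart from the transgene, and the number of embryos or clones behind a library is not given in the sources used here.

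The library totals lay between 11036313 and 17869840 counts. A count of 3, taken as the floor, corresponded to 0.17 to 0.272 CPM, the unit used below, in which each library's counts are scaled to a common normalized library size. Intervals and floors in this text cover counting error only. Sall1 reached 112.8 and 96.0 CPM in the mutant libraries, against 16.2 and 12.6 CPM in the wild type, so the overexpressed gene was high in the libraries labelled mutant. Wt1, whose elements drive the transgene, had 341 and 292 CPM in mutant ovaries against 310 and 309 CPM in wild-type ovaries. The germ cell gene Ddx4 lay between 326 and 393 CPM and the pre-granulosa gene Foxl2 between 28.0 and 46.3 CPM over the 4 libraries, while the Sertoli cell gene Amh had 3 counts in each.

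APP is a membrane protein that is cut by beta-secretase and then by gamma-secretase, whose catalytic subunit is a presenilin, which releases the amyloid-beta peptide. BACE1 is the main beta-secretase of neurons, whereas BACE2 is its close homologue with other preferred cuts, known from pancreatic islets and pigment cells. APLP1 and APLP2 are relatives of APP that lack the amyloid-beta sequence but are processed by the same enzymes.

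Stretches of coding sequence are shown here for the active sites of BACE1 and BACE2 and for the site in App at which beta-secretase cuts. The values below are transcript levels, and none was measured at that site. BACE1 and BACE2 are aspartic proteases, and each has a pair of active-site motifs built around a catalytic aspartate. In the stretches below, read 5′ to 3′ on the coding strand from GENCODE M1 transcripts on NCBIM37 (mm9), capitals mark the 4 codons of the motif, aspartate-threonine-glycine-serine in the first motif and aspartate-serine-glycine-threonine in the second. In both genes the stretch around the first motif is spread over coding exons 1 and 2, and the stretch around the second lies in coding exon 6.
Bace1 first motif: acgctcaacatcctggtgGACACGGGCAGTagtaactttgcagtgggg
Bace2 first motif: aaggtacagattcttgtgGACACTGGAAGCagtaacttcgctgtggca
Bace1 second motif: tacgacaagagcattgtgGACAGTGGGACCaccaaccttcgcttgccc
Bace2 second motif: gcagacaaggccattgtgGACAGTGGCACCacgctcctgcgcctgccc

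The encoded motif was the same in both proteins at both places, while bases differed inside and outside the capitals. Over 48 bases, Bace1 and Bace2 shared 34 bases (70.8%) around the first motif and 37 bases (77.1%) around the second. The stretches were found by searching both proteins for motifs of this form and were centred on them. Part of this agreement was thus set in advance, and other aspartic proteases were not compared. With the intron between its parts, the first stretch spans chr9:45647369-45661015 in Bace1 and chr16:97578706-97621285 in Bace2. The second stretch lies at chr9:45666489-45666536 on the plus strand for Bace1 and at chr16:97636692-97636739 on the plus strand for Bace2. The site in App at which beta-secretase cuts is shown with the first codon of amyloid-beta, an aspartate, in capitals. This stretch lies in coding exon 16 of App at chr16:84965945-84965983 on the minus strand.
App beta-site: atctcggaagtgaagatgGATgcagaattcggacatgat

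Bace2, the homologue of the main beta-secretase, was covered by 200 and 289 counts in mutant libraries 1 and 2 and by 891 and 824 counts in wild-type libraries 1 and 2. After normalization these were 18.1 and 19.2 CPM in the mutant ovaries and 51.8 and 46.7 CPM in the wild-type ovaries. Both mutant libraries lay below both wild-type libraries. The means were 18.7 ± 0.751 CPM (SD, n = 2) and 49.2 ± 3.60 CPM (SD, n = 2), which is 2.63-fold lower in the mutant, or a log2 fold change of -1.40 (standard error 0.12). The nearest pair of libraries from the 2 genotypes was 1.28 log2 units apart. Libraries of one genotype differed by 0.08 log2 units in the mutant and 0.15 in the wild type. Because Bace2 was selected on this contrast, nothing is read from these gaps or from the standard error. Bace2 spans chr16:97578335-97660619 on the plus strand of NCBIM37, and 0 other annotated genes overlap it there. In whole ovaries, fewer cells of a type and less RNA per cell cannot be told apart.

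Bace1, the other beta-secretase gene, did not share this pattern. It had 43.8 CPM in each mutant library and 40.3 and 47.5 CPM in the wild-type libraries. The mutant values lay inside the wild-type range, with means of 43.8 ± 0.0155 CPM (SD, n = 2) and 43.9 ± 5.10 CPM (SD, n = 2). The log2 fold change was -0.004 (standard error 0.12). Bace1 lies at chr9:45646663-45672482 on the plus strand, and its 3′ end is overlapped by Rnf214 on the minus strand. Whether the counting kept strands apart is not given in the sources used here, so reads in the overlap are uncertain.

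**Figure D1:**
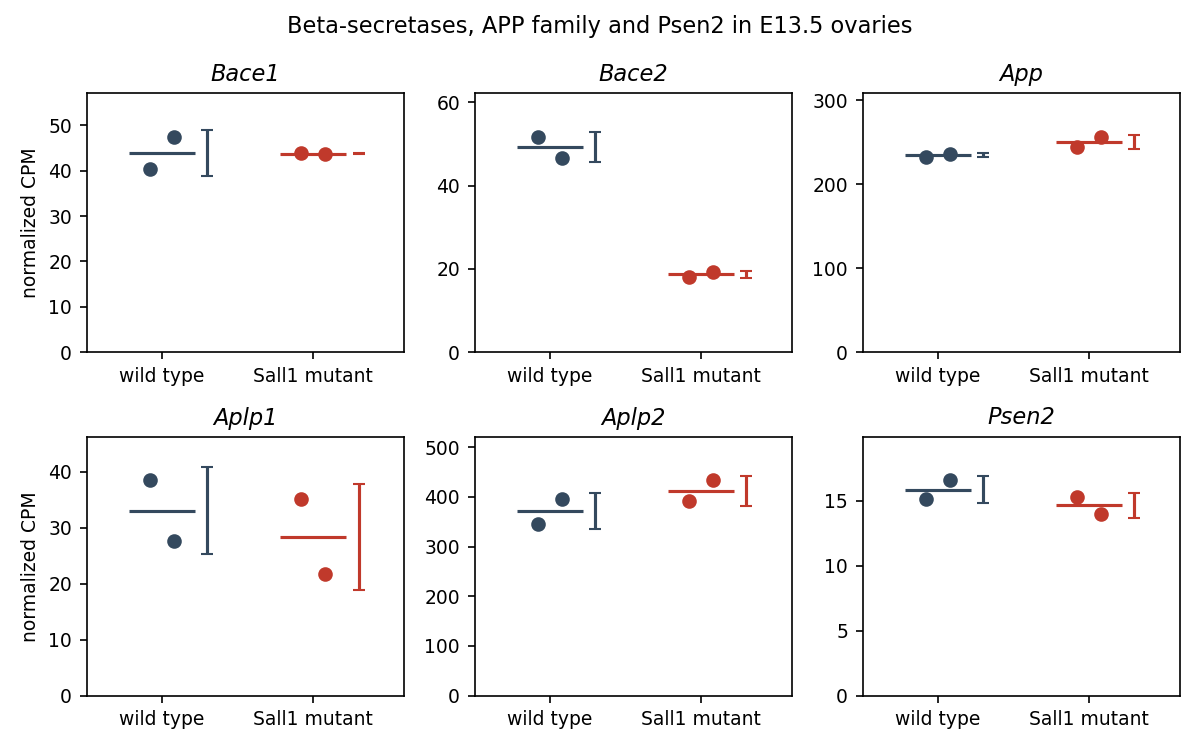
Normalized levels (CPM) of the 6 genes, 1 panel per gene, with the 2 Sall1 mutant and the 2 wild-type libraries as points, the group mean as a horizontal line and the SD around the mean as a bracket beside it, on axes that start at 0. The mutant libraries of Bace2 sit at 18.1 and 19.2 CPM, below the wild-type libraries at 51.8 and 46.7 CPM, while the groups of Bace1, Aplp1, Aplp2 and Psen2 overlap.

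The transcripts of both beta-secretase genes were also expressed against each other. Bace2 made up 29.3% of the summed Bace1 and Bace2 counts in mutant library 1 (95% Clopper-Pearson interval 25.9 to 32.9) and 30.5% in mutant library 2 (27.6 to 33.5). In the wild-type libraries it made up 56.2% (53.7 to 58.7) and 49.5% (47.1 to 52.0). The intervals of the mutant libraries did not meet those of the wild-type libraries, but those of the 2 wild-type libraries did not meet each other either. They cover counting error only and cannot show a difference between genotypes. This share also inherits the values on which Bace2 was selected. On the scale of CPM per kilobase of the longest annotated transcript, which allows levels of different genes to be compared, Bace2 was 40.2% and 41.6% of the sum in mutant ovaries and 67.5% and 61.4% in wild-type ovaries. The sum of both genes on that scale came to 12.1 and 12.4 for mutant ovaries and to 20.5 and 20.4 for wild-type ovaries. Thus per kilobase Bace2 was the higher of the pair in both wild-type libraries and the lower in both mutant libraries. By counts it was slightly below Bace1 in wild-type library 2 (824 against 839). The level of Bace1 also carries the uncertainty of its overlap with Rnf214.

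**Figure D2:**
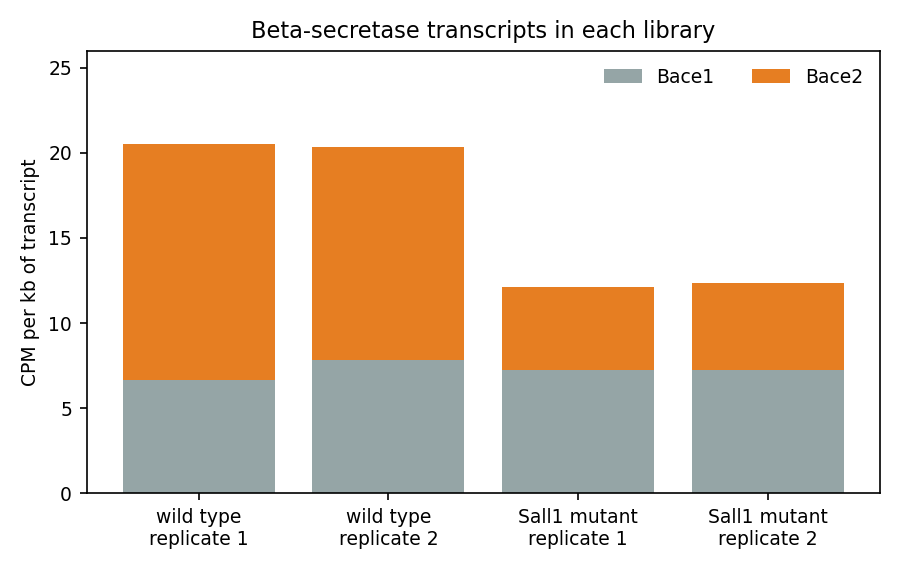
Levels of Bace1 and Bace2 in CPM per kilobase of the longest annotated transcript, stacked in 1 bar per library. In the wild-type libraries Bace2 makes up 67.5% and 61.4% of the sum, and in the mutant libraries 40.2% and 41.6%.

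Of the substrates, App and Aplp2 had the highest levels of the 6 genes in every library. App had 245 and 257 CPM in the mutant libraries against 233 and 236 CPM in the wild-type libraries. Both mutant libraries were above both wild-type libraries, but the nearest ones were only 0.05 log2 units apart. The means were 250.7 ± 8.54 CPM (SD, n = 2) and 234 ± 2.29 CPM (SD, n = 2), and the log2 fold change was 0.10 (standard error 0.09). App is on chromosome 16 like Bace2, at chr16:84954685-85173952 on the minus strand and 12404383 bases away.

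Aplp2, a widely expressed relative of App, had 391 and 434 CPM in the mutant libraries against 346 and 397 CPM in the wild-type libraries. The groups overlapped, and the log2 fold change of 0.15 had a standard error of 0.11. Aplp1, the relative found mainly in neurons, had 35.1 and 21.7 CPM in mutant libraries 1 and 2 and 38.5 and 27.6 CPM in wild-type libraries 1 and 2. Its groups overlapped as well, and library 1 exceeded library 2 by 0.69 log2 units in the mutant and by 0.48 in the wild type. These gaps were larger than the difference between genotypes, a log2 fold change of -0.23 (standard error 0.25).

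Some marker lists were, like Aplp1, higher in library 1 than in library 2 of each genotype. The summed level of the 7 listed neuronal genes was 18.2 and 10.6 CPM in mutant libraries 1 and 2 and 17.7 and 12.98 CPM in wild-type libraries 1 and 2. That of the 7 listed red blood cell genes was 3177 and 869 CPM in the mutant and 3489 and 1679 CPM in the wild type. The part of these in the Aplp1 values was not tested. Within the summed counts of App, Aplp1 and Aplp2, Aplp1 took between 3.05% and 6.25% in the 4 libraries, App between 35.7% and 37.7%, and Aplp2 between 56.0% and 60.9%.

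Psen2 encodes one of the presenilins, the catalytic subunits of gamma-secretase. It had 15.3 and 14.0 CPM in the mutant libraries against 15.1 and 16.6 CPM in the wild-type libraries. The groups overlapped, and the log2 fold change was -0.12 (standard error 0.16). Psen2 spans chr1:182157135-182193569, Aplp1 chr7:31220001-31230580 and Aplp2 chr9:30957142-31019400, all on the minus strand.

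Per kilobase of the longest transcript, the order of levels in wild-type ovaries was Aplp2 (100.5 ± 9.77 CPM per kb; SD, n = 2), App (70.1 ± 0.693), Aplp1 (14.0 ± 3.26), Bace2 (13.2 ± 0.962), Psen2 (7.85 ± 0.522) and Bace1 (7.25 ± 0.840). Aplp1 and Bace2 overlapped in their ranges, as did Psen2 and Bace1. In mutant ovaries Aplp2 (111.8 ± 8.13 CPM per kb), App (74.9 ± 2.56) and Aplp1 (12.0 ± 3.99) kept that order. They were followed by Psen2 (7.25 ± 0.479) and Bace1 (7.23 ± 0.0021), which overlapped, and Bace2 (5.0 ± 0.201) was the lowest. Bace2 thus moved from the fourth to the sixth place among the 6 genes, and to the fifth when the length of all exons together was used, since the level of Psen2 was then 3.82 CPM per kb.

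In the edgeR quasi-likelihood fit, with p-values adjusted over all genes tested, 1 of the 6 genes, Bace2, passed the threshold of 0.05, which 0.0583% of all genes passed. Because Bace2 was selected on this contrast, nothing is read from its passing. Of the other 5 genes, 0 passed this test, 0 had an unadjusted p under 0.05 (5.69% of all genes did) and 0 passed in DESeq2 (0.694% of all genes did). The groups did not overlap for 2 of the 6 genes, Bace2 and App, and did not overlap for 30.9% of all genes. With 2 libraries in each group, 0.333 is the smallest p that exact permutation of the labels can reach for one gene. Without wild-type library 1 the log2 fold change of Bace2 was -1.32, and without wild-type library 2 it was -1.46. Bace2 passed in neither case, and nothing is read from this, as from its passing above.

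The other genes of the pathway were described with 9 lists of 74 genes in all, of which 63 were tested. By edgeR's adjusted p, 0 of the 63 genes were upregulated and 0 downregulated in mutant ovaries. At an unadjusted p under 0.05 there were 1 higher and 3 lower genes, and DESeq2 called 0 upregulated and 2 downregulated. Over all genes tested the shares in either direction were 5.69% at that unadjusted threshold and 0.694% in DESeq2. The median log2 fold change was -0.02 over the listed genes and -0.0009 over all genes tested. In the mutant 25 listed genes were higher and 38 lower, against 7684 higher and 7758 lower over all genes tested. Whether the listed genes differ from all genes was not tested.

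**Figure D3:**
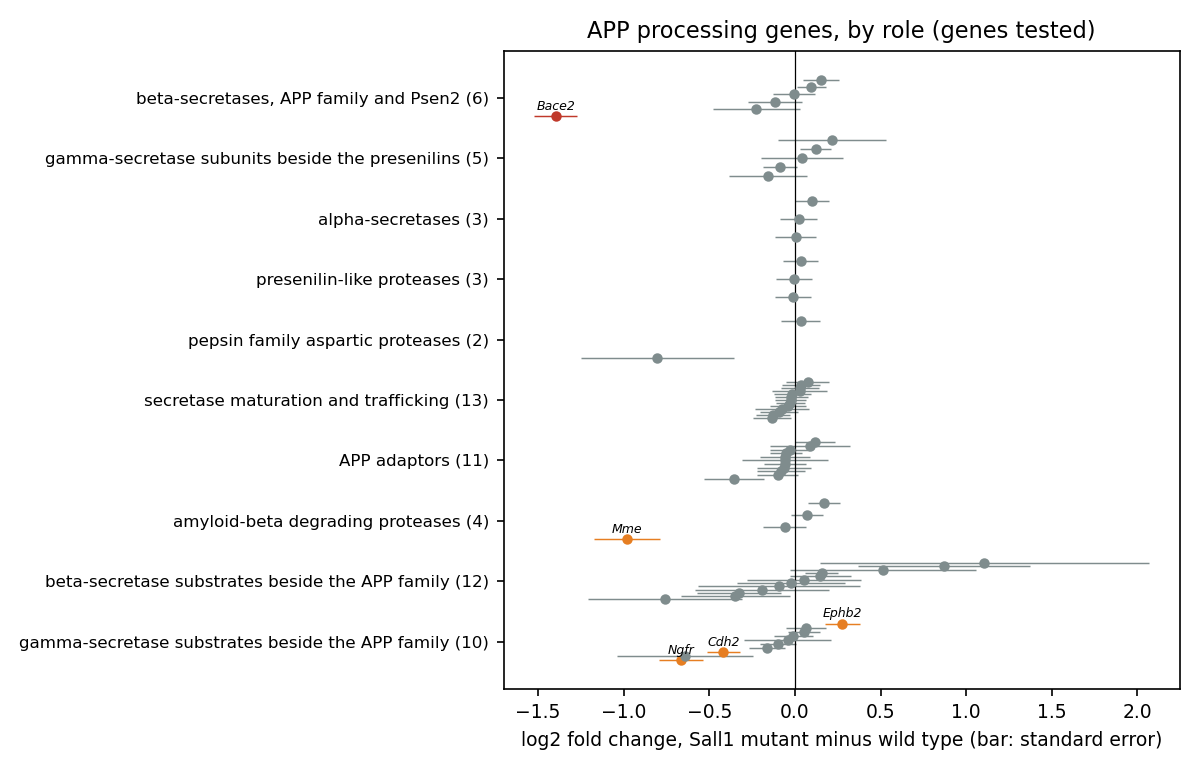
Log2 fold changes of mutant against wild-type ovaries for the 6 genes (top row) and for the tested genes of each pathway list, 1 point per gene with its standard error as a bar, the number of genes tested in parentheses, red for an adjusted p under 0.05 and orange for an unadjusted p under 0.05 that did not pass. Bace2 lies at -1.40 in the top row, and of the 63 listed genes 0 passed the adjusted threshold in edgeR's quasi-likelihood test.

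The remaining subunits of gamma-secretase, the enzyme to which Psen2 belongs, gave 0 calls among 5 genes tested. Ncstn, the nicastrin gene and the highest of them, had 130.2 and 125.7 CPM in mutant ovaries and 120.8 and 114.2 CPM in wild-type ovaries (log2 fold change 0.12, standard error 0.09). The alpha-secretases cut APP inside the amyloid-beta sequence and so compete with beta-secretase. None of the 3 passed by edgeR, with 0 at an unadjusted p under 0.05 and 0 in DESeq2, and Adam10, the highest, had 356 and 310.7 CPM in the mutant and 322 and 300.1 CPM in the wild type. The proteases related to presenilin gave 0 calls among 3 tested, the highest being Sppl3 at a log2 fold change of 0.03 (standard error 0.10). The pepsin family, to which BACE1 and BACE2 are related, gave 0 calls among 2 tested, with Ctsd, the lysosomal cathepsin D, as the highest at a log2 fold change of 0.03. Ctse, the cathepsin E gene and the other one tested, had 4.90 and 2.99 CPM in the mutant and 9.47 and 4.19 CPM in the wild type, with overlapping groups and a log2 fold change of -0.80 (standard error 0.45).

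Genes for the maturation and trafficking of the secretases and APP gave 0 calls among 13 tested, with log2 fold changes from -0.13 to 0.07. Furin, which trims the propeptide of BACE1, was at -0.02, and Lrp1, a large endocytic receptor that binds APP and the highest of the list, at -0.13 (standard error 0.10). The cytoplasmic adaptors of APP gave 0 calls among 11 tested. Numb, the highest adaptor, had 116.0 and 120.6 CPM in mutant ovaries and 118.3 and 127.0 CPM in wild-type ovaries.

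Among the proteases that degrade amyloid-beta, Mme stood lower in the mutant. Mme, which encodes neprilysin, had 50.3 and 35.3 CPM in the mutant libraries against 93.9 and 74.5 CPM in the wild type, and its log2 fold change was -0.98 (standard error 0.19). It did not pass edgeR's quasi-likelihood test (adjusted p = 0.266) but passed in DESeq2 (adjusted p = 0.000242). Ide, the insulin-degrading enzyme and the highest of the list, was at 197 and 185 CPM in the mutant and 178 and 162 CPM in the wild type, a log2 fold change of 0.17 (standard error 0.09).

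Among other substrates of beta-secretases, 0 of 12 genes tested passed. St6gal1, a sialyltransferase cut by BACE1 and the highest of the list, had 107.2 and 102.6 CPM in mutant ovaries and 89.7 and 98.3 CPM in wild-type ovaries. Pmel, the pigment cell protein cut by BACE2, was low, with 1.45 and 2.19 CPM in the mutant and 0.639 and 1.36 CPM in the wild type. Both mutant libraries were above both wild-type libraries, as the groups did not overlap for 30.9% of all genes. The nearest ones, mutant library 1 and wild-type library 2, rested on only 16 and 24 counts. The log2 fold change of 0.87 had a standard error of 0.50 and did not pass. Among other substrates of gamma-secretase, 0 of 10 passed edgeR's adjusted threshold, and Notch2, the highest, had a log2 fold change of -0.10 (standard error 0.11).

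In that last list, 3 of the 10 genes tested had an unadjusted p under 0.05, as did 5.69% of all genes. Ngfr, the p75 neurotrophin receptor, had 53.7 and 44.7 CPM in the mutant libraries against 81.8 and 74.2 CPM in the wild-type libraries. Its log2 fold change was -0.67, which did not pass in edgeR (adjusted p = 0.266) and passed in DESeq2 (adjusted p = 0.00889). Cdh2, the N-cadherin gene, had a log2 fold change of -0.42 (adjusted p = 0.368 in edgeR's quasi-likelihood test). Ephb2, a receptor of ephrins, was higher at 0.28 (adjusted p = 0.769 in the same test).

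The genes next to Bace2 on chromosome 16 had few counts. Igsf5, Itgb2l, Mx1, Fam3b and Mx2 had between 0 and 14 counts per library and did not pass the filter. Dscam, a cell adhesion gene on the side of the Bace2 start, had 3.81 and 6.05 CPM in the mutant and 6.39 and 5.95 CPM in the wild type, and its groups overlapped.

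The tested genes with a pattern most like that of Bace2 were chosen by the Euclidean distance of centred log2 CPM over the 4 libraries. They were 6030469F06Rik (distance 0.183), Fndc7 (0.199), Stxbp6 (0.215), Tceal6 (0.240) and Ak5 (0.261), on a scale on which Bace2 itself lay 1.40 from a flat pattern. Of these, Stxbp6 had 8.35 and 8.38 CPM in mutant ovaries and 21.2 and 23.4 CPM in wild-type ovaries. With 4 libraries such likeness was common, since 357 of the genes tested had a correlation above 0.95 with Bace2, and the counts of 6030469F06Rik and Fndc7 were low.

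Markers of some other cell types had lower values in the same libraries as Bace2, and their part in its difference was not tested. By edgeR's adjusted p, 0 of the listed marker genes of any cell type passed, the 6 stromal genes included. At an unadjusted p under 0.05, 3 of the 6 stromal genes were lower in the mutant, and DESeq2 called 3. Over all genes tested the shares in either direction were 5.69% and 0.694%. Tcf21, a transcription factor of stromal progenitors, had 28.0 and 23.3 CPM in the mutant against 57.7 and 51.7 CPM in the wild type (edgeR adjusted p = 0.0811), and Pdgfra and Lum had log2 fold changes of -0.55 and -0.79. The summed level of the stromal list was 958 and 597 CPM in the mutant and 916 and 864 CPM in the wild type.

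At the same unadjusted threshold Bmp2, Kdr, S100b and Hsd3b1 were lower in the mutant, and Foxl2, Irx3, Ptgds, Cyp11a1, Pax8 and Dct were higher. Upk3b, also lower at that threshold and one of the 5 surface epithelium genes, had 63.5 and 48.3 CPM in the mutant and 86.3 and 97.8 CPM in the wild type. Pigment cells, in which BACE2 is known to act, were represented by 5 listed genes. Their summed level was 17.5 and 25.9 CPM in the mutant and 14.5 and 11.5 CPM in the wild type. Dct, a melanin synthesis enzyme, made up most of this sum, with 10.6 and 20.4 CPM in the mutant and 7.73 and 6.91 CPM in the wild type (edgeR adjusted p = 0.537). The part of pigment cells in the Bace2 difference was not tested. Mitf lay between 4.42 and 6.53 CPM, Mlana had between 3 and 7 counts per library, and Tyr and Tyrp1 had 0 counts in every library. The summed level of the germ cell list was 1600 and 1810 CPM in the mutant and 1636 and 1763 CPM in the wild type, and that of the pre-granulosa list 575 and 585 against 535 and 570 CPM.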

How the data were processed

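RNA-seq of 4 libraries from mouse ovaries at E13.5 was used, 2 Sall1 mutant and 2 wild type. The authors aligned the reads with STAR 2.6.1d, and the submitters' processing notes name mm9 and DESeq2. The deposited values are counts per gene from summarizeOverlaps, without normalization or pooling. The annotation and strand setting are not given in the sources used here. All count columns matched a library.

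In R 4.3.3, counts were normalized by TMM, filtered by filterByExpr and tested by the quasi-likelihood F-test of edgeR 4.0.16, with genotype as the only factor and Benjamini-Hochberg adjustment over all 15442 genes tested at a threshold of 0.05. Each standard error was the fold change (log2) over the square root of its F. The alternatives were DESeq2 1.42.0, edgeR's likelihood ratio test, RLE and upper-quartile normalization, no filter, the replicate block, a minimum of 10 counts per library, exon union lengths, and leaving out each library.

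The 6 genes and all lists were chosen with earlier results of these data known. The genes named were the 6 genes, Sall1, Wt1, listed genes with p under 0.05, the highest gene of each pathway list, the 5 genes nearest to Bace2 in pattern, on log2 CPM (prior count 2), and its 3 measured neighbours on each side. Further genes, namely Ddx4, Amh, Furin, Pmel, Ctse, Mitf, Mlana, Tyr and Tyrp1, were named after their values were seen, and a few listed markers are not reported here. Of the listed pathway genes 1 was matched through an older symbol. Positions, lengths and coding sequences came by symbol from GENCODE M1 on NCBIM37. The labels do not say whether replicates came from separate embryos, so p-values measure the spread between these libraries, which may be technical.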

Additional observations from a re-analysis of the deposited data

How the results depend on the processing

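The number of genes called was 9 by edgeR's quasi-likelihood test. It was 105 with DESeq2, 134 with the likelihood ratio test, 28 without a filter (22242 genes tested), 19 with at least 10 counts in every library, 118 with DESeq2 and a replicate block, and 4 to 130 on leaving out single libraries. The replicate block gave 385 genes. The labels do not say that equal replicate numbers mark a litter or batch, although columns of equal number bear consecutive library numbers, and same-numbered libraries deviated together with a correlation of 0.481 across genes. Bace2 was called under every alternative except without wild-type library 1 or 2. Its log2 fold change ranged from -1.46 to -1.32 over the left-out libraries. Because Bace2 was selected on this contrast, nothing is read from these calls. No other of the 6 was called under any alternative tried, with DESeq2 and unadjusted counts of 0. Of 60 alternative log2 fold changes of these 5 genes, 58 lay within 1 SD of the reported value. That SD was each gene's own, of log2 CPM within the groups, and is wide where libraries differ. For Aplp1 it was 0.42, so values from -0.61 to 0.09, a change of sign, all lay within it. Of the pathway genes, 0 were called by the quasi-likelihood test, 2 (Mme and Ngfr) with DESeq2, the likelihood ratio test and DESeq2 with the replicate block, and 3 (also Cdh2) with the replicate block in edgeR; leaving out single libraries gave 0 to 2, the 2 without mutant library 1. With exon union lengths, Bace2 ranked 5 of the 6 genes in mutant ovaries. The cause of these changes was not tested. Where a library is left out, the lone library of its group is assumed to vary like the other group. Values of a few counts, as for Pmel, S100b and the neighbours of Bace2, are limited by depth.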
